A study of Homo sapiens with 18 samples.

Results

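Most proteins of respiratory complex I and the proteins of the mitochondrial ribosome are encoded by nuclear genes. The promoters of these genes are described here through 4 histone modifications in leukemia cells. The members were the nuclear protein-coding genes of GENCODE release 44 whose symbols begin with NDUFA, NDUFB, NDUFC, NDUFS or NDUFV (48 complex I genes) or with MRPL or MRPS (78 mitoribosome genes), together 126 of 20033 nuclear protein-coding genes. For each modification, intervals touching the 2 kb on either side of any annotated transcription start of a gene were collected, and the one with the largest mean count over the 4 libraries stood for the gene. The complex I genes comprised 31 accessory subunits by symbol, the 7 nuclear-encoded core subunits, 8 assembly factors of the NDUFAF series and the pair NDUFA4 and NDUFA4L2. The mitoribosome genes comprised 49 with MRPL and 29 with MRPS symbols, the names of the large and small subunit, although a few proteins with MRPS symbols, among them MRPS18A, sit in the large subunit.

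The cells were MOLM-13, an established line of acute myeloid leukemia that carries a KMT2A rearrangement (KMT2A-r), and no gene was altered in either group. Cells received 100 nM PR-957 (ONX-0914), an inhibitor of the immunoproteasome subunit PSMB8, or the diluent DMSO, for 72 h by the sample labels and for 48 h by a legend of the study. Cut&Tag uses an antibody to bring the Tn5 transposase to modified histones, where it cuts and tags the DNA, and was performed for H3K4me3, H3K27ac, H3K4me1 and H3K27me3 with 2 libraries per treatment and modification, 16 libraries in all. Everything was measured in this single cell line, and the sources used here do not say whether the 2 libraries of a group came from separate cultures, so that p-values measure the spread between these libraries, which may be technical.

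Complex I passes electrons from NADH to ubiquinone and pumps protons across the inner mitochondrial membrane. Its catalytic core holds the flavin and the iron-sulfur clusters, accessory subunits surround this core, and assembly factors join the modules and then leave. The mitoribosome is built from nuclear-encoded MRPL and MRPS proteins and translates the few proteins encoded by mitochondrial DNA, among them the membrane core of complex I. H3K4me3 marks the starts of active genes, H3K27ac active starts and enhancers, H3K4me1 enhancers and the flanks of starts, and H3K27me3 genes silenced by Polycomb.

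Intervals of one modification overlap, so that reads are counted more than once, and the total counts per library, summed over all intervals, ran from 9885836 to 14165777 for H3K27ac, from 10032503 to 12047958 for H3K27me3, from 15204186 to 30584219 for H3K4me1 and from 30070119 to 44591150 for H3K4me3. As a check of the cell line, H3K4me3 intervals lay at the myeloid genes SPI1, CD33, LYZ and CEBPA and at HOXA9 and MEIS1, which KMT2A fusions drive. None lay at the myeloid gene MPO (which did carry H3K27ac), the B cell gene MS4A1, the T cell genes CD3D and CD3E or the erythroid genes GATA1 and HBB. Low levels were seen at the lymphoid genes PAX5 (3.31 CPM per kb, where CPM is the normalized count scaled to library size) and CD8A (1.01), against 10.4 at SPI1.

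The complex I and mitoribosome genes carried the modifications of active promoters almost throughout. H3K4me3 was present at 118 of the 126 genes (93.7%, against 63.9% of all nuclear protein-coding genes), and the same 118 carried H3K27ac. Among all protein-coding genes with H3K4me3, 88.8% also had H3K27ac. H3K4me1 was found at 53 of the 118 (44.9%, against 60.8% of protein-coding genes with H3K4me3), and H3K27me3 at 2 (1.69%, against 18.1%). The shares were alike in both complexes, with H3K4me1 at 46.7% of the 45 complex I genes and 43.8% of the 73 mitoribosome genes that had H3K4me3. Every interval that represented a member passed the filter on low counts.

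For 8 genes the interval lists hold nothing near a start in any modification: NDUFS1, the largest core subunit, the accessory subunits NDUFA3 and NDUFA6, and MRPL23, MRPL45, MRPS12, MRPS18B and MRPS36. The nearest interval of any modification lay 7903 bp (MRPL23) to 730798 bp (MRPS18B) from their canonical starts. They count as not measured, and nothing is said of their chromatin.

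An interval that represents a gene need not lie at its main start. It covered the canonical start in 41 of 45 complex I and 72 of 73 mitoribosome genes for H3K4me3 (all protein-coding genes, 89.2%), but in 8 of 21 and 10 of 32 for H3K4me1 (all, 46.8%), where the interval mostly lay beside the start. NDUFS3, a core subunit, was represented 11533 bp away by the H3K4me3 interval at the start of PTPMT1. NDUFS8, another core subunit, was represented 5159 bp away at the start of TCIRG1. The H3K4me3 interval of the assembly factor NDUFAF6 lay 126344 bp from its canonical start, at the start of the cyclin gene CCNE2. Another protein-coding gene also started inside the interval in 61 of 118 members for H3K4me3, so that the count belongs to both genes.

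In DMSO, the levels of both complexes were centred close to those of other genes. The median H3K4me3 level was 4.99 CPM per kb for complex I and 4.87 for the mitoribosome, against 4.59 for all protein-coding genes. The median H3K27ac level was 5.13 and 4.39 CPM per kb, against 4.00. The median H3K4me1 level was 1.23 and 1.07 CPM per kb, against 1.32. Across the 118 members the H3K4me3 and H3K27ac levels per kb were related (Spearman rho 0.579), a description over genes measured in the same libraries, whose points share intervals and neighbours.

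NDUFA4, a small subunit first assigned to complex I and now placed in complex IV, had the highest H3K27ac level of the complex I list. Its H3K27ac CPM was 49.2 and 47.0 in DMSO and 47.8 and 46.9 in PR-957, a DMSO level of 15.7 ± 0.51 CPM per kb (SD, n = 2), above 98.0% of genes. Its paralog NDUFA4L2, which replaces NDUFA4 under low oxygen in other cells, had the lowest H3K27ac level, with a CPM of 5.00 and 4.64 in DMSO and 4.63 and 5.70 in PR-957 (1.51 ± 0.079 CPM per kb, SD, n = 2). The pair also stood apart in H3K4me3, at 8.63 ± 0.45 CPM per kb for NDUFA4 and 2.59 ± 0.14 for NDUFA4L2 (SD, n = 2). The H3K4me3 interval of NDUFA4L2 also represents SHMT2 and is the wider of the pair, 7.34 kb against 3.42 kb. NDUFA4L2 was the only complex I gene with an H3K27me3 interval over its start, chr12:57235751-57238966, and NDUFA4 had no H3K4me1 interval.

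In the mitoribosome, MRPL13 was highest in H3K4me3 (12.1 CPM per kb) and H3K27ac (16.1). MRPL28 was lowest in H3K4me3 (0.992) and MRPL10 in H3K27ac (1.67). NDUFAF6 reached 21.96 CPM per kb of H3K4me3 through the CCNE2 interval, and 8.46 in the interval at its own canonical start. For H3K4me1 the highest and lowest levels were those of NDUFAF6 (4.71, in an interval 59687 bp from its canonical start) and NDUFAB1 (0.501), the mitochondrial acyl carrier protein, in complex I, and of MRPL36 (2.51) and MRPL57 (0.309) in the mitoribosome.

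MRPL13 and NDUFAF6 both lie on chromosome 8, which holds 5 members. Their median H3K27ac level was 8.10 CPM per kb on chromosome 8 and 4.15 on other chromosomes, and the median H3K4me3 level 6.91 and 4.76. All protein-coding genes on chromosome 8 were also higher than those elsewhere, with medians of 5.73 and 3.96 CPM per kb for H3K27ac and 8.04 and 4.55 for H3K4me3. The part of the number of copies of this chromosome in these levels was not tested.

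**Figure D1:**
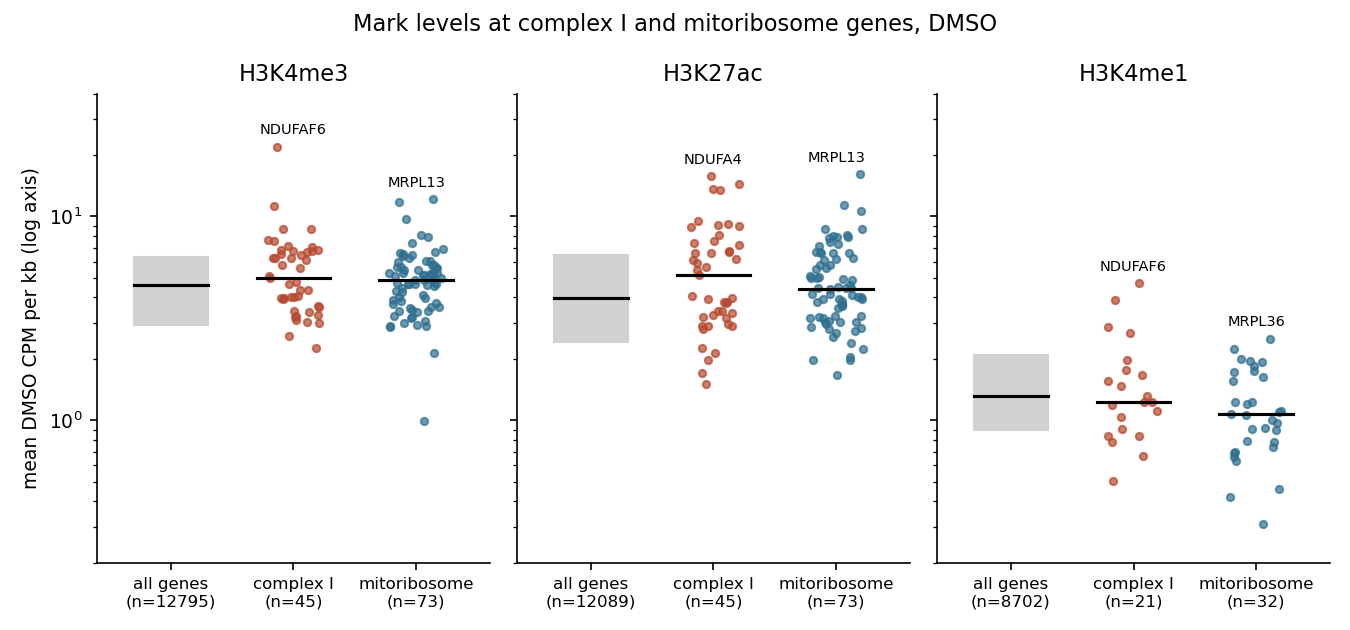
Level per gene in DMSO as mean CPM per kb of the representing interval (log axis, mean of 2 libraries), for H3K4me3, H3K27ac and H3K4me1. Points are genes, black lines medians and grey boxes the middle 50% of all protein-coding genes, and the highest member is named. The medians of both complexes lie inside the grey box in each panel.

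Some promoter features that the choice by symbol did not use were more frequent among these genes than among all protein-coding genes, and others were not. The canonical start lay within 1 kb of the canonical start of a protein-coding gene on the opposite strand in 18 of 48 complex I genes (37.5%) and 27 of 78 mitoribosome genes (34.6%), against 10.0% of all protein-coding genes and 14.3% of those with H3K4me3. With any annotated start in place of the canonical one the shares were 56.2% and 42.3%, against 17.7% and 24.5%. Several neighbours are mitochondrial themselves. MRPS11 and MRPL46, one protein of each ribosomal subunit, start 320 bp apart. NDUFB5, an accessory subunit, and MRPL47 start 156 bp apart, so that a complex I and a mitoribosome gene share 1 promoter. MRPL43 starts 46 bp from TWNK, the helicase of mitochondrial DNA, and MRPS12 181 bp from SARS2, the mitochondrial seryl-tRNA synthetase.

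Of the 126 members, 109 had a promoter in the RefSeq table (GRCh38.p14), which holds 250 bases before to 50 after the start (40 complex I and 69 mitoribosome genes). Where RefSeq gives several, the one nearest to the canonical start was used, and it began at the same base in 107 of 109. Motifs were searched on both strands as exact letters. GCATGCGC, the core of the NRF1 site, was found in 20.0% of complex I and 8.70% of mitoribosome promoters, against 4.38% of 15345 protein-coding promoters and 5.67% of those with H3K4me3. CCGGAAG, the site of GABP and other ETS factors, was found in 17.5% and 43.5%, against 14.8% and 19.6%. AAGATGGCG, the YY1 site, was found in 17.5% and 18.8%, against 2.98% and 4.26%. CACGTG, the E-box bound by MYC, was found in 10.0% and 7.25%, against 8.86% and 10.1%. None of the 4 motifs contains another. At least 1 of the first 3 was present in 45.0% of complex I and 58.0% of mitoribosome promoters, against 20.3% of all, and in 2733 of the 10139 of genes with H3K4me3. The median GC content was 61.2% and 60.3%, against 63.7% of all and 66.3% of those with H3K4me3. These are matches of letters and not measurements of binding.

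The promoters of 3 genes show these motifs, with matches in capitals, each sequence in the direction of its gene. NDUFS6, an accessory subunit on the + strand (chr5:1801157-1801456), holds the NRF1 letters on the opposite strand, and its neighbour MRPL36 on the - strand (chr5:1799788-1800087) the E-box and then the YY1 letters on the opposite strand. Both genes were represented by 1 shared interval in H3K4me3 and in H3K27ac. MRPL20 on the - strand (chr1:1407244-1407543), the mitoribosome gene with the smallest H3K4me3 p-value below, holds the GABP letters at both marked places.
NDUFS6: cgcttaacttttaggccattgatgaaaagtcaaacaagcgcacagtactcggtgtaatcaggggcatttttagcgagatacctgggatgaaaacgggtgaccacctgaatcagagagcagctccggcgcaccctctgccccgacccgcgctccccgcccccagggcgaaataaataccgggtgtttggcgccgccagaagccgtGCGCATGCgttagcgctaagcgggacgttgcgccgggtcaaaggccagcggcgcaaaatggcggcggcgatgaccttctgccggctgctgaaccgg
MRPL36: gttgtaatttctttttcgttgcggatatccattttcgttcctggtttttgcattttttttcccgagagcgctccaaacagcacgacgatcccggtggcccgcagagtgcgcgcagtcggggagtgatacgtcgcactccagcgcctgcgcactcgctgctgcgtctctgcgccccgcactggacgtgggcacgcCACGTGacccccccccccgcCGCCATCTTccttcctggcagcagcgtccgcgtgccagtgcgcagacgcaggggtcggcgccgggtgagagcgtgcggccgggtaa
MRPL20: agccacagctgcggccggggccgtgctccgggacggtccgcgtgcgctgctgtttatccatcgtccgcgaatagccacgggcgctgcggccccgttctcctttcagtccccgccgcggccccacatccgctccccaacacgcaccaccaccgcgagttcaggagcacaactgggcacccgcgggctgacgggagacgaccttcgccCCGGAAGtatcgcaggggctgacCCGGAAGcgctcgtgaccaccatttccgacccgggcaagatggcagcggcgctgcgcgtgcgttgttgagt

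The comparison of PR-957 with DMSO asked whether inhibition of PSMB8 altered the chromatin of these genes. H3K4me3, the deepest of the 4 data sets, passed at none of them (0 of 45 complex I and 0 of 73 mitoribosome genes in edgeR's quasi-likelihood test at an adjusted p of 0.05, and 0 of each in DESeq2, which gave all of them an adjusted p). Of all intervals tested, 0.226% passed in H3K4me3 in edgeR, and 0.219% of protein-coding genes by their representing interval. DESeq2 called 25 of the 59229 intervals and 6 protein-coding genes. An unadjusted p under 0.05 was reached by 1 complex I gene, lower in PR-957, and by 1 higher and 7 lower mitoribosome genes, against 8.03% of all protein-coding genes. The 95% interval of the difference lay within 1.5-fold for all 45 and all 73, and for 11410 of all 12795 protein-coding genes tested. The median log2 fold change was -0.048 for complex I and -0.031 for the mitoribosome, against -0.010 for all protein-coding genes. The summed CPM of the 44 distinct complex I intervals was 1315 and 1318 in DMSO and 1252 and 1328 in PR-957, and that of the 72 mitoribosome intervals 1728 and 1764 against 1685 and 1742. The first PR-957 library was the lowest in each sum, and the groups overlapped in both.

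MRPL20, a protein of the large subunit, had the smallest H3K4me3 p-value. Its CPM was 21.7 and 23.5 in DMSO and 18.2 and 20.4 in PR-957. The groups did not overlap, and the log2 fold change was -0.23 ± 0.08 (SE, n = 2 per group, edgeR adjusted p = 0.381). It was -0.032 with a window of 5 kb, where another interval represents the gene, and ran from -0.31 to -0.15 as single libraries were left out. MRPS9, a small subunit protein, had 16.8 and 17.4 against 15.3 and 13.6 (log2 fold change -0.24 ± 0.09, SE, edgeR adjusted p = 0.425). MRPL53 followed at 18.9 and 16.9 against 15.0 and 15.6 (-0.23 ± 0.09, edgeR adjusted p = 0.474). None of these passed. In complex I the smallest p-values among genes whose libraries did not overlap were those of NDUFA1, NDUFB5 and NDUFA4. NDUFA1, an X-linked accessory subunit, had a CPM of 16.9 and 18.2 in DMSO and 13.9 and 16.9 in PR-957 (log2 fold change -0.19 ± 0.09, SE, edgeR adjusted p = 0.627). In NDUFA4 the values were 28.4 and 30.6 against 26.5 and 27.4 (-0.13 ± 0.08, edgeR adjusted p = 0.756), and in the interval shared by NDUFB5 and MRPL47 17.7 and 19.4 against 15.9 and 17.5 (-0.15 ± 0.09, edgeR adjusted p = 0.749). Both PR-957 libraries lay below both DMSO libraries in 9 complex I and 23 mitoribosome genes and above them in 5 and 10, where 21.0% and 16.9% of all protein-coding genes did so.

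Among the core subunits, which carry out the electron transfer, those reported here stayed within narrow bounds in H3K4me3. None of the 6 measured passed, and the log2 fold changes of the 5 reported here ran from -0.08 (NDUFS7) to 0.09 (NDUFS3). NDUFS3 and NDUFS8 were represented by the intervals at PTPMT1 and TCIRG1, so that their values are not those of their canonical starts. NDUFV1, which binds NADH and flavin, had a CPM of 12.7 and 13.8 in DMSO and 13.4 and 11.8 in PR-957. NDUFV2, its partner with an iron-sulfur cluster, had 35.6 and 38.5 against 38.3 and 37.9, and NDUFS7, near the ubiquinone site, 21.6 and 20.6 against 18.7 and 21.3. In each of the 3 the groups overlapped. The 8 assembly factors spanned -0.08 to 0.02, with NDUFAF1 at 12.4 and 13.2 against 12.6 and 12.2. In this span NDUFAF6 was represented by the interval at CCNE2. The interval at its canonical start had a log2 fold change of 0.03 ± 0.08 (SE).

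Among the mitoribosome genes followed by name, H3K4me3 was also close between the groups. MRPL3, at 12.2 and 13.2 CPM in DMSO and 12.6 and 11.3 in PR-957, MRPL11, at 17.1 and 17.9 against 16.02 and 17.4, and MRPL12, at 31.0 and 29.3 against 29.0 and 30.8, all overlapped. MRPL58, a release factor built into the large subunit, had 11.4 and 11.5 against 11.4 and 11.0. The small subunit protein MRPS7 had 32.5 and 31.4 against 32.7 and 32.4. MRPS18A and MRPS18C are homologous proteins with separate places in the ribosome, and had 11.6 and 10.7 against 10.2 and 11.3, and 24.7 and 27.5 against 24.0 and 28.1.

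**Figure D2:**
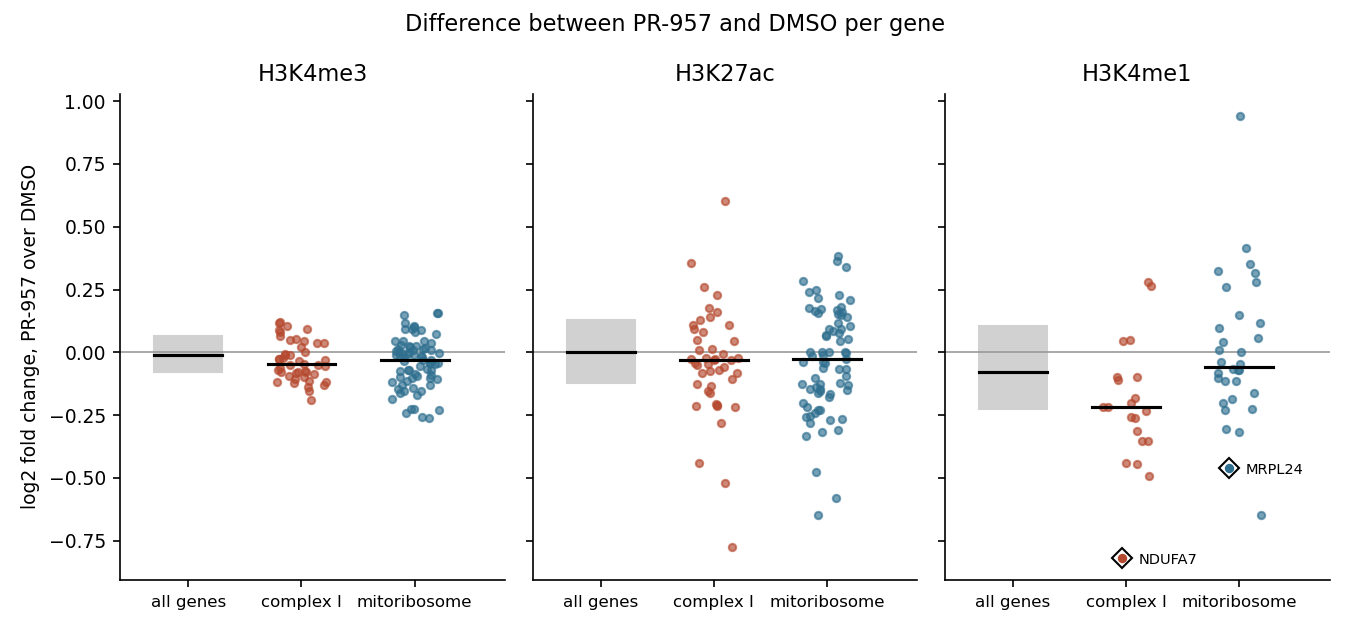
Log2 fold change of PR-957 over DMSO per gene for H3K4me3, H3K27ac and H3K4me1. Points are members, black lines medians and grey boxes the middle 50% of all protein-coding genes, and diamonds mark the genes that passed an adjusted p of 0.05 (NDUFA7 and MRPL24, both in H3K4me1).

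H3K27ac likewise passed at no member (0 of 45 and 0 of 73 in edgeR), where 0.238% of all intervals tested and 0.48% of protein-coding genes passed. DESeq2 gave an adjusted p for only 7 of the 45 and 7 of the 73, its filter on low means having removed the others, and called 0 of these. Over all H3K27ac intervals it called 85 of 74510, and 47 protein-coding genes. An unadjusted p under 0.05 was found for 3 complex I genes, all lower, and for 1 higher and 6 lower mitoribosome genes, against 9.55% of all protein-coding genes. The 95% interval of the difference lay within 1.5-fold for 35 of 45 and 50 of 73, so that a change beyond 1.5-fold was not excluded at the others. It did so for 8089 of all 12089 protein-coding genes tested. The median log2 fold change was -0.032 and -0.026, against 0.00053 for all protein-coding genes. The summed CPM of the complex I intervals was 1131 and 1140 in DMSO and 1104 and 1101 in PR-957, without overlap. This sum includes the interval of NDUFAF3 described below, which also represents other genes. The mitoribosome sum was 1421 and 1393 against 1358 and 1392. Over all protein-coding genes the sum was 192300 and 193700 in DMSO and 190600 and 193300 in PR-957, with overlap. The median was -0.085 over the 26 MRPS and 0.0021 over the 47 MRPL genes.

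NDUFAF3, an assembly factor, had the smallest H3K27ac p-value of all members. Its interval of 16.3 kb, which also holds the starts of DALRD3 and IMPDH2, represented 4 genes, and its CPM was 155 and 145 in DMSO and 130 and 139 in PR-957. The groups did not overlap, with a log2 fold change of -0.16 ± 0.05 (SE, n = 2 per group, edgeR adjusted p = 0.235). NDUFA9, an accessory subunit near the junction of both arms of the complex, had a low CPM of 4.54 and 5.85 in DMSO and 3.32 and 2.74 in PR-957 (log2 fold change -0.78 ± 0.31, SE, edgeR adjusted p = 0.429). The NDUFB5 and MRPL47 interval had 25.1 and 24.0 against 20.3 and 20.1 (-0.28 ± 0.13, edgeR adjusted p = 0.562). It was lower in PR-957 in both active modifications, though it passed in neither.

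In the mitoribosome, MRPL30 had an H3K27ac CPM of 13.8 and 13.5 in DMSO and 10.7 and 9.08 in PR-957 (log2 fold change -0.48 ± 0.18, SE, edgeR adjusted p = 0.3904). MRPS25 had 24.2 and 24.8 against 20.4 and 19.2 (-0.31 ± 0.13, edgeR adjusted p = 0.489), and MRPS10 7.72 and 4.74 against 3.62 and 4.71 (-0.58 ± 0.26, edgeR adjusted p = 0.522). These 3 were chosen by the smallest p-values among mitoribosome genes whose groups did not overlap. PR-957 was the lower group in each, and none passed. In MRPS10 the groups were separated by 4.74 against 4.71 only, and the log2 fold change was -0.17 without the first and -0.87 without the second DMSO library. MRPS18A was at 5.22 and 4.94 against 3.42 and 3.10, and MRPL12, in an interval of 18.1 kb that also holds the start of the mitochondrial carrier SLC25A10, at 85.3 and 73.2 against 73.3 and 70.1. Non-overlapping libraries were found in 12 complex I and 20 mitoribosome genes with PR-957 lower, where 19.3% of all protein-coding genes did so, and in 5 and 15 with PR-957 higher, where 19.1% did.

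H3K4me1 was the only modification in which members passed, 1 of 21 complex I and 1 of 32 mitoribosome genes, both lower in PR-957. Of all intervals 1.94% passed, and of protein-coding genes 2.15% passed in either direction and 1.45% as lower in PR-957. They were NDUFA7, an accessory subunit of the arm that reaches into the matrix, and MRPL24, a protein of the large subunit near the exit of the peptide tunnel. An unadjusted p under 0.05 was found for 1 higher and 4 lower complex I genes and 1 higher and 3 lower mitoribosome genes, against 16.9% of all protein-coding genes. DESeq2 gave an adjusted p for 5 of 21 and 8 of 32 and called 0 of these, with 0.386 for MRPL24, and it gave none for NDUFA7. Over all H3K4me1 intervals it called only 4 of 108158, and 0 protein-coding genes by their representing interval. Its 0 among the members therefore says little about them in particular.

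NDUFA7 (ENSG00000267855.6) was represented by chr19:8322467-8325661, an interval 1092 bp upstream of its start that also represents RPS28 and a gene listed only as ENSG00000167774. RPS28, a protein of the cytosolic ribosome, starts 121 bp away from NDUFA7 on the opposite strand. Its H3K4me1 counts were 132 and 132 in DMSO and 48 and 60 in PR-957, in libraries of unequal depth, and its CPM 4.47 and 5.52 against 3.08 and 2.61. Both PR-957 libraries were lower, with a log2 fold change of -0.82 ± 0.23 (SE, n = 2 per group, 95% interval -1.27 to -0.37, edgeR adjusted p = 0.0309). Over its promoter, H3K4me3 was 48.2 and 49.8 against 43.1 and 50.7 CPM (-0.06 ± 0.07, edgeR adjusted p = 0.912) and H3K27ac 27.4 and 35.7 against 29.9 and 31.5 (-0.02 ± 0.11, edgeR adjusted p = 0.986). The groups overlapped in both of these. The other 2 intervals called within its window, chr19:8322647-8325252 and chr19:8322799-8326160, overlap the first and hold much the same reads.

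MRPL24 (ENSG00000143314.12) was represented by chr1:156740597-156750623, an interval of 10.0 kb that covers its start, extends upstream and also represents HDGF, a growth factor gene. Its H3K4me1 CPM was 14.1 and 17.1 in DMSO and 11.9 and 10.8 in PR-957, again without overlap, and the log2 fold change was -0.46 ± 0.13 (SE, n = 2 per group, 95% interval -0.71 to -0.20, edgeR adjusted p = 0.0340). Its H3K4me3 CPM was 11.8 and 12.5 against 9.39 and 10.9 (-0.26 ± 0.11, edgeR adjusted p = 0.522). H3K27ac was counted in an interval that begins 1808 bp upstream and also represents HDGF and PRCC. It was 43.1 and 42.5 against 40.3 and 38.7 (-0.12 ± 0.10, edgeR adjusted p = 0.828). PR-957 was the lower group in all 3 modifications, but only H3K4me1 passed. The H3K27ac and H3K4me1 counts cannot be assigned to MRPL24 alone.

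Both calls lie close to the threshold. Offsets fitted to GC content moved the adjusted p to 0.0867 for NDUFA7 and 0.212 for MRPL24, with log2 fold changes of -0.72 and -0.35. Without the first DMSO, second DMSO, first PR-957 or second PR-957 library the adjusted p for NDUFA7 was 0.0915, 0.277, 0.0945 and 0.195. For MRPL24 it was 0.0484 without the first DMSO library, and 0.377, 0.105 and 0.240 without the others.

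The promoters of both genes, on the - strand, are given with the motif matches in capitals: NDUFA7 (chr19:8321326-8321625) holds the E-box before its start and the YY1 letters just after it, and MRPL24 (chr1:156741039-156741338) none of the 4.
NDUFA7: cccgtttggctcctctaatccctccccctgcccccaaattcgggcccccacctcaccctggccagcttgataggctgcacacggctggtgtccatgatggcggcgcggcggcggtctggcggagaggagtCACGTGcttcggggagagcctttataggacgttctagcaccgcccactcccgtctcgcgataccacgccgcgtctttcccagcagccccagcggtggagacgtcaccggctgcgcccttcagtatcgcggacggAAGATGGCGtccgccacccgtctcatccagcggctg
MRPL24: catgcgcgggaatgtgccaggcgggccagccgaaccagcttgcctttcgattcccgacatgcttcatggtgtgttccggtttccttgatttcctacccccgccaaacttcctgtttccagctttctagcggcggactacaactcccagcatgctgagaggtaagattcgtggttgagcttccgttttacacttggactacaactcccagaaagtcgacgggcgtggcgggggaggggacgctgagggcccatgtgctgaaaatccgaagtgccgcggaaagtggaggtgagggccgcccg

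**Figure D3:**
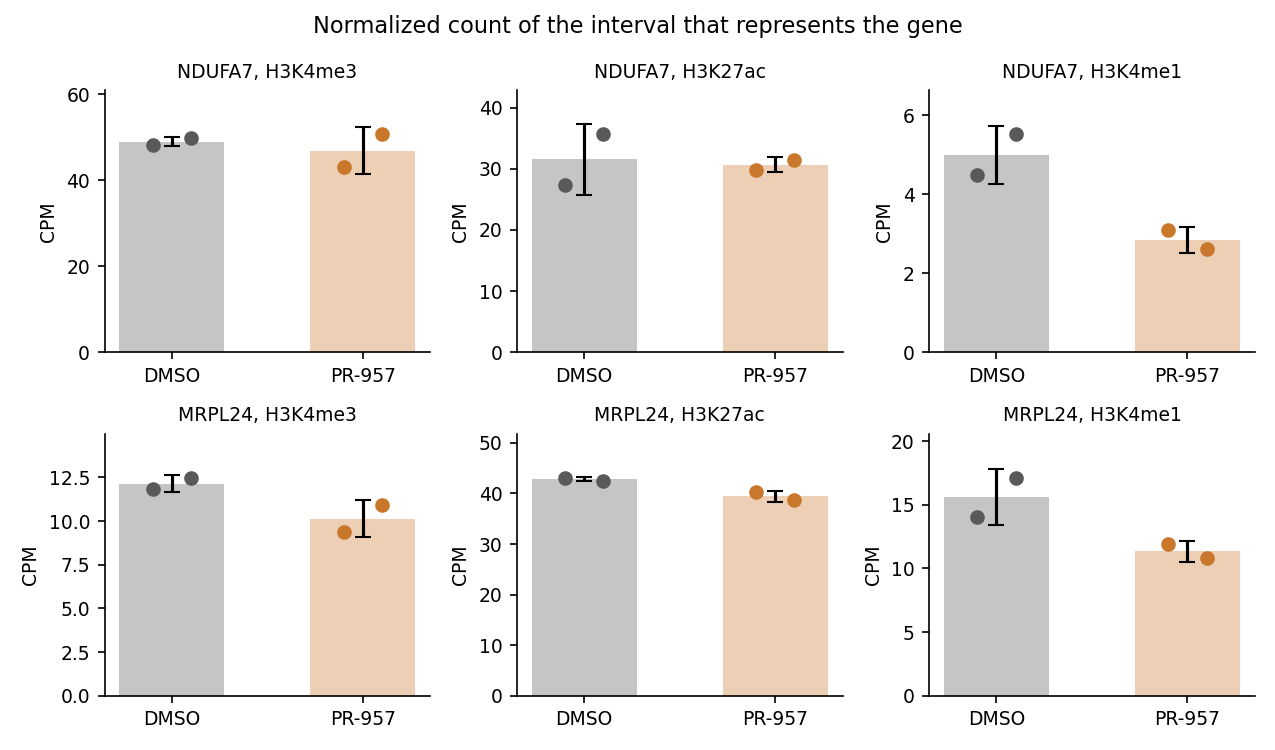
Normalized CPM of the interval that represents NDUFA7 (top) and MRPL24 (bottom) in H3K4me3, H3K27ac and H3K4me1. Points are libraries (2 per group), bars means and error bars SD; the axes start at 0. The H3K4me1 panels are those in which the gene passed, from 4.47 and 5.52 to 3.08 and 2.61 for NDUFA7 and from 14.1 and 17.1 to 11.9 and 10.8 for MRPL24.

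Across complex I the H3K4me1 values leaned toward lower counts in PR-957. The log2 fold change was below 0 in 17 of 21 genes (81.0%, all protein-coding genes 62.1%), with a median of -0.22 against -0.077 for all protein-coding genes. Both PR-957 libraries lay below both DMSO libraries in 10 of 21 and above them in 1, where 32.5% and 15.3% of all protein-coding genes did so. The summed CPM of the 20 distinct intervals was 252 and 259 in DMSO and 234 and 237 in PR-957, without overlap, and the summed CPM over all protein-coding genes was also lower in both PR-957 libraries (92540 and 95940, against 103100 and 99070). The median moved from -0.27 to -0.14 as single libraries were left out, and no test of the list was made. In the mitoribosome the median was -0.057, with 18 of 32 below 0, and it was 0.0016 with the GC offsets.

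Besides NDUFA7, the complex I genes with the lowest H3K4me1 p-values were NDUFV1 and NDUFB9. NDUFV1 had a CPM of 7.59 and 9.83 in DMSO and 6.29 and 6.44 in PR-957 (log2 fold change -0.44 ± 0.16, SE, edgeR adjusted p = 0.126), in an interval within the gene 5816 bp from its canonical start. NDUFB9, an accessory subunit of the membrane arm, went the other way with 32.7 and 34.9 against 39.4 and 41.7 (0.26 ± 0.11, edgeR adjusted p = 0.213), in an interval of 25.6 kb. It passed only with cyclic loess offsets (adjusted p = 0.00641). Of the other core subunits, NDUFS3 had 8.47 and 8.61 against 6.67 and 7.04 (-0.31 ± 0.16), and NDUFS8 31.5 and 28.8 against 26.8 and 26.4 (-0.18 ± 0.11). In both the groups did not overlap and the edgeR adjusted p was 0.318 and 0.435. Their intervals also represent PTPMT1 and TCIRG1, and neither reaches within 2 kb of the canonical start. NDUFV2 overlapped, at 4.98 and 5.18 against 6.29 and 4.39.

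In the mitoribosome MRPL57, with the lowest H3K4me1 level, had a CPM of 0.948 and 1.51 in DMSO and 1.60 and 2.96 in PR-957 (log2 fold change 0.94 ± 0.37, SE, edgeR adjusted p = 0.164), from counts of 28, 36, 25 and 68, and its fold change ran from 0.40 to 1.29 over the alternatives. MRPL11 had 12.7 and 13.2 against 10.5 and 10.3 (-0.32 ± 0.14, edgeR adjusted p = 0.204), in an interval 25790 bp away at the start of PELI3. Neither passed. At the canonical start of MRPL11 the values were 2.61 and 2.76 against 0.770 and 2.31.

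H3K27me3 was measured at 2 members, and 0 of 2 passed in edgeR, where 5.92% of all intervals tested and 11.8% of protein-coding genes did. An unadjusted p under 0.05 was found for 1 of the 2 (MRPS22), against 22.9% of protein-coding genes, and DESeq2 gave neither an adjusted p. NDUFA4L2 had a CPM of 7.40 and 7.23 in DMSO and 10.1 and 8.35 in PR-957, without overlap, as in MRPS22 and in 20.3% of all protein-coding genes with PR-957 higher (log2 fold change 0.33 ± 0.21, SE, n = 2 per group, 95% interval -0.09 to 0.75, edgeR adjusted p = 0.503). In H3K4me1, beside the same start, it had 5.79 and 6.36 against 4.30 and 4.61 (-0.44 ± 0.19, edgeR adjusted p = 0.222). MRPS22 was represented only through an annotated start far from its canonical one, by an interval 234943 bp away with counts of 25, 18, 47 and 40. Its CPM there was 2.64 and 1.59 against 4.36 and 3.09 (0.82 ± 0.39, edgeR adjusted p = 0.261).

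Members that share an interval cannot be told apart. These were NDUFC2 with its read-through gene NDUFC2-KCTD14, MRPS11 with MRPL46, NDUFS6 with MRPL36, and NDUFB5 with MRPL47, which left 114 distinct intervals for the 118 members in H3K4me3 and in H3K27ac. NDUFC2, an accessory subunit of the membrane arm, had an H3K4me3 CPM of 21.1 and 21.7 in DMSO and 20.0 and 19.5 in PR-957. The MRPS11 and MRPL46 interval had 22.8 and 23.2 against 21.1 and 21.7, and the NDUFS6 and MRPL36 interval 52.3 and 49.4 against 52.5 and 54.9. The groups did not overlap in any of the 3, with PR-957 lower in the first and second and higher in the last. The edgeR adjusted p was 0.833, 0.855 and 0.877. Of all protein-coding genes, 21.0% had both PR-957 libraries below both DMSO libraries in H3K4me3, and 16.9% had them above.

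Other nuclear genes of oxidative phosphorylation and mitochondrial translation were counted in the same way. In H3K4me3 and H3K27ac, 0 genes passed in edgeR among those tested of complex II (4), III (8), IV (10) and V (15). The count was also 0 for 11 mitochondrial translation factors and 5 other mitoribosome proteins. For 7 other complex I assembly factors and 12 genes of mitochondrial transcription and biogenesis it was 0 as well. Of all protein-coding genes, only 0.219% passed in H3K4me3 and 0.48% in H3K27ac. An unadjusted p under 0.05 was found in H3K4me3 for 1 complex II gene (lower), against 8.03% of all protein-coding genes. In H3K27ac it was found for 1 gene each of complex II (lower), III, V and biogenesis (higher), against 9.55%. The median log2 fold changes of these groups of genes ran from -0.095 (complex II) to -0.0030 in H3K4me3. In H3K27ac they ran from -0.14 (other complex I assembly factors) to 0.079 (complex IV). DESeq2 called 0 of the 72 in H3K4me3 and 0 of the 9 to which it gave an adjusted p in H3K27ac. In H3K4me1, 1 of 35 genes passed, ATP5F1B, the catalytic beta subunit of the ATP synthase, with a CPM of 24.9 and 20.7 in DMSO and 15.98 and 18.4 in PR-957 (log2 fold change -0.41 ± 0.12, SE, edgeR adjusted p = 0.0409), where 2.15% of all protein-coding genes passed. DESeq2 gave an adjusted p to 13 of the 35 and called 0 of these, and it called 0 of all protein-coding genes in H3K4me1.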

How the data were processed

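Cut&Tag counts of 16 libraries were analysed, 2 per treatment and modification; IgG controls (2) were not used here. The deposited files hold whole-number counts per interval that the authors made without normalization, on 1 interval list per modification in which intervals overlap. Per the submitters' processing notes, Trimmomatic 0.39, Bowtie2 2.2.5, Picard 2.27.1, SAMtools 1.7, SEACR 1.3 and deepTools 3.5.1 were used with hg38. The counter and the handling of duplicates are not given in the sources used here. Positions follow the numbering in the files.

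After filterByExpr (minimum count 10) and TMM normalization, PR-957 was tested against DMSO in edgeR 4.0.16 (R 4.3.3; quasi-likelihood test), with Benjamini-Hochberg adjustment over all intervals of a modification at 0.05. The fits were tested on simulated data. CPM are TMM-normalized, and the SE of a log2 fold change was derived from its F statistic. With 2 libraries against 2 an exact permutation test cannot give a p below 0.333. Within a group, libraries differed by more than sampling noise (chi-square per degree of freedom, 2.07 to 3.06). The canonical start is that of the Ensembl canonical transcript in GENCODE release 44.

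The members, gene lists and motifs were chosen with earlier results of these data known. Genes were named by rule: every member that passed, per modification and complex the 3 smallest p-values among members whose groups did not overlap and the highest and lowest DMSO level, core subunits and a fixed list, members with H3K27me3 and those that share an interval. Values of other members were added after they were seen. A few results that this rule names are not reported here. Alternatives were DESeq2 1.42.0, cyclic loess (limma 3.58.1), library sizes alone, median-of-ratios factors, count filters, the replicate block, GC offsets (lowess span 0.3), windows of 1 and 5 kb, the highest count per kb, adjustment over 1 interval per gene, each library left out and, added after seeing the data, the canonical start only.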

Additional observations from a re-analysis of the deposited data

How the results depend on the processing

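No member passed in H3K4me3, H3K27ac or H3K27me3 under any alternative run. In H3K4me1 the count of 1 complex I and 1 mitoribosome gene became 0 and 0 with library size only, DESeq2 (which gave an adjusted p to 5 of 21 and 8 of 32 genes, NDUFA7 not among them), GC offsets, and the replicate block with GC offsets, 2 and 0 with cyclic loess, 0 for complex I with the 1 kb window, which the NDUFA7 interval does not reach, and 0 for the mitoribosome with the highest count per kb. Calls over all protein-coding genes changed too, from 187 to 176 with library size only, 175 with cyclic loess and 0 with DESeq2. They were 48 with GC offsets and 32 with the replicate block added to these. The 1 kb window gave 177 and the highest count per kb 122. The adjusted p of NDUFA7 and MRPL24 also moved as single libraries were left out, as given above. Both genes kept a negative fold change throughout, from -0.97 to -0.66 for NDUFA7 and from -0.60 to -0.31 for MRPL24. The complex I median in H3K4me3 was -0.037 with library size only, -0.034 with cyclic loess and -0.056 with the replicate block and GC offsets, and ran from -0.059 to 0.0052 as single libraries were left out, being above 0 only without the first PR-957 library. For the mitoribosome that range was -0.068 to -0.0087 in H3K4me3 and -0.090 to 0.046 in H3K27ac, above 0 without the first PR-957 library. The single H3K27me3 gene of complex I was at 0.49 with library size only and from 0.18 to 0.46 without single libraries. The cause of the other shifts was not tested. The replicate numbers are shared between groups but did not show a pairing, as the deviations of same-numbered libraries correlated at -0.010 (H3K27ac), -0.0070 (H3K27me3), 0.035 (H3K4me1) and 0.17 (H3K4me3). With the replicate number as a block, the H3K4me1 counts were 1 and 1 and the complex I medians -0.22 (H3K4me1) and -0.047 (H3K4me3). No call of a member changed, while the H3K4me1 calls over all protein-coding genes went from 187 to 167. H3K4me1 depth limits the genes with the fewest counts, and the first PR-957 library of that modification is the shallowest.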
